A study of Rattus norvegicus with 25 samples.

Results

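Astrocyte genes were followed in the striatum of adolescent rats whose dams had received nicotine, had been pair-fed, or had been left untreated. They were chosen by symbol, as all probe sets whose platform annotation gives exactly 1 of Gfap, Aqp4, Aldh1l1, Gja1, Slc1a2, Slc1a3, S100b, Aldoc and Glul. Of these 9 genes 8 had a probe set, 1 each, among the 29214 deposited probe sets. Glul, which encodes glutamine synthetase, was named by no probe set in the annotation used here and was not analysed here. All 8 measured genes passed the filter on low values, a mean level no lower than that of the middle probe set, as did 14607 probe sets in total.

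Striatal total RNA, taken from Lister hooded males at PND 35 to 42, was hybridised to Affymetrix rat gene 1.0st arrays, with an array for each rat. The 7 Nic offspring came from dams whose drinking water contained nicotine bitartrate, given from before mating. The 10 Con-Pf offspring came from dams that drank water and were given each day only as much food as matched Nic dams had eaten. The dams of the 8 Con offspring ate and drank freely. Con-Pf 9 and Con-Pf 10 were used as Con-Pf after their titles, although their descriptions call them controls. The sources used here do not give the litter of each animal, so p-values measure the spread between these animals, some of which may be littermates. The methods list fewer pair-fed dams than the Con-Pf animals used here, so some of these must share a dam. All animals were nevertheless treated as independent.

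Astrocytes are the glial cells that take up glutamate and potassium after neuronal activity, supply neurons with metabolites and line blood vessels with their end feet. Their markers stand for different parts of this work. Gfap encodes the filament protein of the astrocyte skeleton, whose level rises in reactive astrocytes. Slc1a2 and Slc1a3 encode the glutamate transporters GLT-1 and GLAST. Aqp4 encodes the water channel of the end feet, and Gja1 encodes the main astrocyte connexin, which couples astrocytes through gap junctions. Aldh1l1, a folate enzyme, and Aldoc, the brain form of aldolase in glycolysis, are metabolic markers, and S100b encodes a calcium-binding protein that some oligodendrocytes also make.

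Letters upstream of the genes are given for the 4 genes that the results below turn on, the glutamate transporters (Slc1a2 and Slc1a3), the gene with the only match to the AP-1 site (Gja1) and the gene with no pair that passed in the correlations (S100b). Each is the last 100 bases before the most upstream RefSeq start, in GRCr8, printed 5′ to 3′ on the strand of the gene, with motif matches in capitals. The stretches lie at chr3:109460009-109460108 on the plus strand for Slc1a2, at chr2:59557809-59557908 on the minus strand for Slc1a3, at chr20:36302464-36302563 on the plus strand for Gja1 and at chr20:12381082-12381181 on the minus strand for S100b.
Slc1a2: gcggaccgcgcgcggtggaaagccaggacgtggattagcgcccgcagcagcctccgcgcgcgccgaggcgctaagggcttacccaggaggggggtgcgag
Slc1a3: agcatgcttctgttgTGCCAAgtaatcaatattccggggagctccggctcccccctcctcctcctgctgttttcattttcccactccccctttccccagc
Gja1: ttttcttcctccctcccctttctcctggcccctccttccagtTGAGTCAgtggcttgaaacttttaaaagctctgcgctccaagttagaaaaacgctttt
S100b: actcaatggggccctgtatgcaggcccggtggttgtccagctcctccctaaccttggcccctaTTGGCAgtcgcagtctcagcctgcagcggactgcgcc

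Over the 250 bases upstream of all 9 genes, 4 motifs were searched on both strands. These were TATAAA (the TATA box, in 13.1% of the 27457 RefSeq windows of this length), TTGGCA (one arm of the site of nuclear factor I, a factor of astrocyte development, in 11.6%), TGANTCA (the site of AP-1, the Fos and Jun dimer, in 6.33%) and TTCNNNGAA (the site of STAT factors, in 7.5%). Gja1 held TGAGTCA beginning 58 bases before its start. Slc1a3 held the nuclear factor I motif on the opposite strand, as TGCCAA, 85 bases before its start, and S100b held TTGGCA 37 bases before its start. No match overlapped another, and these letters were not found in the windows of the other 6 genes. The window of Slc1a2 was 71.2% G and C, against 48% for Slc1a3 and a median of 52% over all windows. Thus none of these motifs was common to the astrocyte genes.

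The 25 arrays resembled each other, with Pearson correlations between 0.967 and 0.997. Con 3 and Con 5 stood apart from the rest on the first principal component, which held 30.45% of the variance, with scores of -25.2 and -33.9 against -11.6 for the next array on that side, Con 1. These arrays bear directly on several astrocyte genes and are therefore named beside each result that rests on them. Of 13 markers of striatal neurons 11 had a probe set, and these 11 were all above the filter. Passing the filter does not identify the tissue, since 14607 of 29214 probe sets passed it. The level of the 2 cortical and thalamic neuron markers tested was high on Nic 2 (1.81), Nic 7 (1.38) and Con 5 (1.22). These are log2 means minus the mean over arrays, and Con-Pf arrays ran from -0.53 to 0.22. Carry-over of other tissue was not tested. The methods state that samples were balanced over hybridisation dates, which the files used here do not give. The paper's supplement reports that a sample with a low RNA integrity number was kept, since a fault of chip loading was held likely. It does not say which sample this was, so the part of RNA quality was not tested. RMA levels are on the log2 scale, and a level is compared only between arrays and not between genes.

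**Figure D1:**
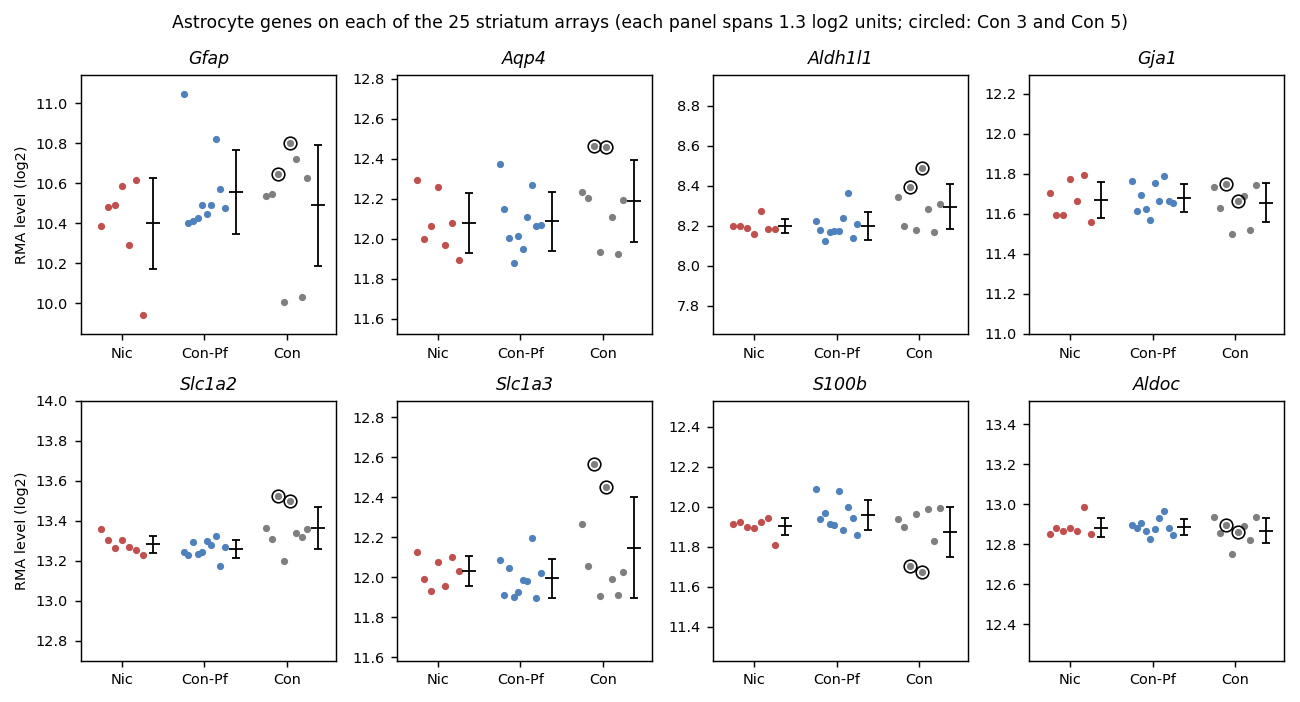
RMA level (log2, vertical axis) of 8 astrocyte genes on each array of the Nic (n = 7), Con-Pf (n = 10) and Con (n = 8) groups. Points are animals, bars are the mean and SD, all panels span the same number of log2 units, and circles mark Con 3 and Con 5, which were the highest 2 arrays for Slc1a2, Slc1a3, Aqp4 and Aldh1l1 and the lowest 2 for S100b.

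No astrocyte gene passed the test in any comparison between groups, and the groups overlapped for each of the 8 genes. Gfap, the filament gene, had levels with a lowest, median and highest value of 9.94, 10.48 and 10.61 in Nic, of 10.40, 10.48 and 11.05 in Con-Pf, and of 10.01, 10.59 and 10.80 in Con. Con-Pf 1 was the highest array and Nic 7 the lowest, and all 3 groups overlapped. The means were 10.40 ± 0.23 in Nic (SD, n = 7), 10.56 ± 0.21 in Con-Pf (SD, n = 10) and 10.49 ± 0.30 in Con (SD, n = 8). The difference of Nic minus Con-Pf was -0.16 on the log2 scale (standard error 0.11, limma adjusted p = 0.999), that of Con-Pf minus Con was 0.07 (standard error 0.11, adjusted p = 0.721), and that of Nic minus Con was -0.09 (standard error 0.12, adjusted p = 0.691). Without Con 3 and Con 5, Con-Pf minus Con was 0.15 (standard error 0.12, limma adjusted p = 0.842). Nic minus Con was then -0.012 (standard error 0.13, limma adjusted p = 0.997). With 1 array left out, Nic minus Con-Pf ran from -0.20 (without Nic 6) to -0.083 (without Nic 7). Nic minus Con ran from -0.16 (without Con 4) to -0.014 (without Nic 7), and Con-Pf minus Con from 0.00048 (without Con 4) to 0.11 (without Con 5). In tissue RNA, fewer astrocytes and less of a transcript per astrocyte cannot be told apart.

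Of the glutamate transporters, Slc1a2 (GLT-1) had levels of 13.23, 13.27 and 13.36 in Nic (lowest, median and highest), of 13.18, 13.26 and 13.33 in Con-Pf, and of 13.20, 13.35 and 13.53 in Con. Con 3 and Con 5 were the highest arrays, and the lowest Con array lay within the range of Con-Pf. Its mean was 13.28 ± 0.043 in Nic (SD, n = 7), 13.26 ± 0.043 in Con-Pf (SD, n = 10) and 13.37 ± 0.10 in Con (SD, n = 8). Con-Pf minus Con was -0.11 (standard error 0.037), a fold of 0.929, with an unadjusted p of 0.00781 and an adjusted p of 0.122 from limma. Nic minus Con was -0.082 (standard error 0.040, adjusted p = 0.309 from limma), and Nic minus Con-Pf was 0.024 (standard error 0.038, adjusted p = 0.999).

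Slc1a3 (GLAST) had levels of 11.93, 12.03 and 12.13 in Nic, of 11.90, 11.98 and 12.20 in Con-Pf, and of 11.90, 12.04 and 12.57 in Con. Con 3 (12.57) and Con 5 (12.45) lay above all other animals, whereas the lowest Con arrays were level with the lowest Con-Pf arrays. Con-Pf minus Con was -0.15 (standard error 0.073), a fold of 0.90, with an unadjusted p of 0.0457 and an adjusted p of 0.219 from limma. Without Con 3 and Con 5 the same difference was -0.031 (standard error 0.052) for Slc1a3 and -0.057 (standard error 0.031) for Slc1a2, with adjusted p-values of 0.934 and 0.691 from limma. Nic minus Con for Slc1a3 was -0.12 with all arrays (adjusted p = 0.429, limma) and 0.0047 without the 2 arrays.

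Of the genes of end feet and junctions, Aqp4 had levels of 11.89, 12.06 and 12.30 in Nic, of 11.88, 12.07 and 12.37 in Con-Pf, and of 11.92, 12.20 and 12.47 in Con. Con 3 and Con 5 were again the highest arrays, and the groups overlapped over most of their range. Con-Pf minus Con was -0.10 (standard error 0.076, limma adjusted p = 0.417) and -0.012 without these 2 arrays, and Nic minus Con was -0.11 (standard error 0.083, limma adjusted p = 0.466) and -0.020 without them. Gja1, the connexin gene with the AP-1 match shown above, had levels of 11.56, 11.66 and 11.79 in Nic, of 11.57, 11.66 and 11.79 in Con-Pf, and of 11.50, 11.68 and 11.75 in Con. Its 3 ranges nearly coincided, and its differences lay between -0.0093 for Nic minus Con-Pf and 0.024 for Con-Pf minus Con (standard errors 0.045 and 0.043). The sign of Nic minus Con for Gja1, 0.014, turned to -0.015 after centring of the arrays on their medians.

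Of the metabolic markers, Aldh1l1 had levels of 8.16, 8.19 and 8.27 in Nic, of 8.12, 8.18 and 8.36 in Con-Pf, and of 8.17, 8.30 and 8.49 in Con. Nic and Con-Pf arrays lay close together except for Con-Pf 8 and Nic 5, and Con arrays reached higher, with Con 5 and Con 3 on top. Con-Pf minus Con was -0.097 (standard error 0.041), with an unadjusted p of 0.0248 and an adjusted p of 0.176 from limma, and -0.048 without Con 3 and Con 5. Nic minus Con was -0.098 (standard error 0.044), with an unadjusted p of 0.0359 and an adjusted p of 0.291 from limma, and -0.050 without the 2 arrays. Aldoc had the narrowest range, with levels of 12.85, 12.87 and 12.99 in Nic, of 12.82, 12.88 and 12.97 in Con-Pf, and of 12.75, 12.87 and 12.94 in Con. Its differences were within 0.019 of 0 in all 3 comparisons, which is less than its within-group SD of 0.050, and the signs of Con-Pf minus Con and Nic minus Con turned negative (-0.0035 and -0.014) when arrays were centred.

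S100b went the other way on the arrays that stood apart. Its levels were 11.81, 11.92 and 11.94 in Nic, 11.86, 11.94 and 12.09 in Con-Pf, and 11.67, 11.92 and 11.996 in Con. Con 5 (11.67) and Con 3 (11.70) were the lowest of all 25 arrays, and the other Con arrays lay among the Con-Pf and Nic arrays. Con-Pf minus Con was 0.085 (standard error 0.044, limma adjusted p = 0.256), and 0.023 without Con 3 and Con 5. Nic minus Con was 0.028 (standard error 0.048, limma adjusted p = 0.766), -0.00039 with the arrays centred and -0.033 without the 2 arrays.

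**Figure D2:**
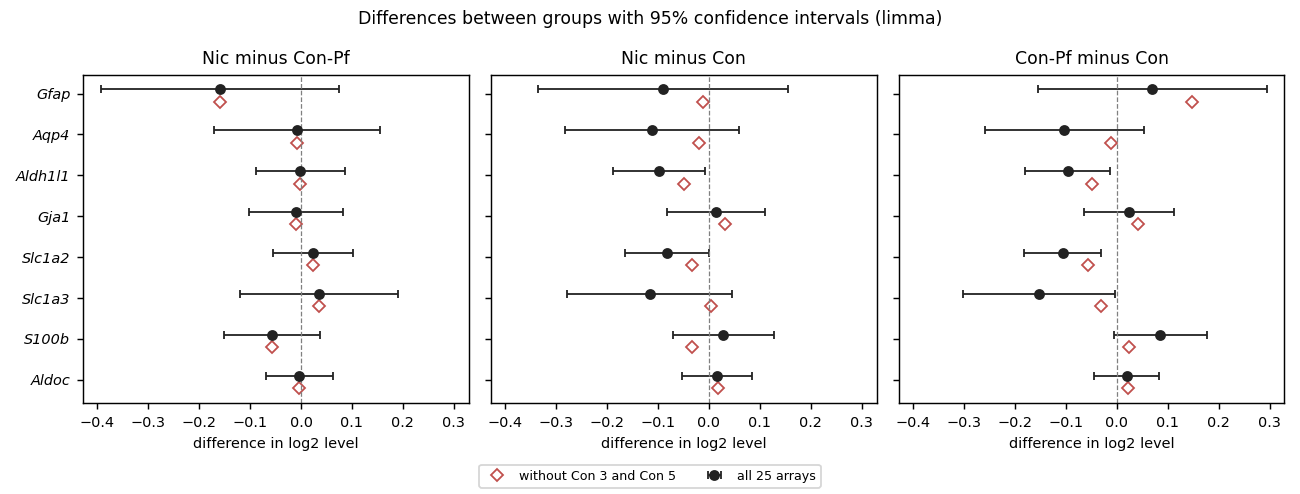
Difference in log2 level (horizontal axis) of each astrocyte gene in 3 comparisons. Filled points with bars are limma estimates over 25 arrays with 95% confidence intervals, and open diamonds are estimates without Con 3 and Con 5. In Con-Pf minus Con the values of Slc1a2, Slc1a3, Aldh1l1 and Aqp4 lie below 0 and move towards it without the 2 arrays.

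In Con-Pf minus Con, 0 of 8 members were called at an adjusted p under 0.05 with limma, where 184 of 14607 probe sets (1.26%) were called. At an unadjusted p under 0.05, 3 members were lower in Con-Pf (Slc1a2, Slc1a3 and Aldh1l1) and 0 were higher, where 7.76% of all probe sets were lower and 14.2% were higher. The median difference of the members was -0.039, against 0.015 over all probe sets. With Con 3 and Con 5 left out, 0 members had an unadjusted p under 0.05, against 8.10% of all probe sets, and the median was 0.0051 over the members and 0.0080 over all probe sets. In Nic minus Con-Pf the members other than Gfap had differences between -0.057 for S100b and 0.036 for Slc1a3, with Aqp4 at -0.0083 and Aldh1l1 at -0.0013, and the signs of Aqp4, Aldh1l1, Gja1 and Aldoc turned in some fits. Here 0 of 8 were called with limma (background 0.185%) and 0 had an unadjusted p under 0.05 (background 4.36%, of which 2.54% higher and 1.82% lower), with a median of -0.0060 against 0.0082 over all probe sets. In Nic minus Con, 0 of 8 were called with limma (background 0.00%) and 1, Aldh1l1, was lower at an unadjusted p under 0.05 (background 16.2%, of which 12.3% higher and 3.96% lower), with a median of -0.086 against 0.024 over all probe sets. In this comparison without Con 3 and Con 5, 0 members had an unadjusted p under 0.05, against 4.65% of all probe sets. The median was then -0.016 over the members and 0.017 over all probe sets. Each pair of comparisons shares the arrays of a group, so they are not independent of each other.

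The intervals show what changes these arrays could have missed. Over the 8 members, 95% intervals reached from -0.30 to 0.29 in Con-Pf minus Con, from -0.39 to 0.19 in Nic minus Con-Pf and from -0.34 to 0.16 in Nic minus Con. Gfap had the widest interval in each comparison and Aldoc the narrowest, from -0.069 to 0.062 in Nic minus Con-Pf.

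The members differed in how much animals of 1 group varied. Gfap had a within-group SD of 0.25 on the log2 scale, above 95.5% of the probe sets kept, and its level spanned 2.15-fold over the 25 animals. Aqp4 and Slc1a3 came next, with SDs of 0.17 and 0.16 and spans of 1.51-fold and 1.59-fold. The SD of Slc1a3 was 0.076 in Nic and 0.097 in Con-Pf, against 0.25 in Con, which holds Con 3 and Con 5, and without the 2 arrays its within-group SD was 0.10, below the median of all probe sets. S100b (0.090), Gja1 (0.086), Aldh1l1 (0.079) and Slc1a2 (0.069) were below the median SD of all probe sets, 0.121. Aldoc, with an SD of 0.050 and a span of 1.18-fold, was less variable than all but 1.13% of probe sets. Gfap was also the most variable member without Con 3 and Con 5 (0.25), where Slc1a2 (0.048) came below Aldoc (0.052).

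Animals that were high for 1 astrocyte gene tended to be high for others. Levels were centred on each group's mean and correlated over the 25 animals in all 28 pairs of members, with 100000 permutations within groups and Benjamini-Hochberg adjustment over the 28. With these, 16 pairs passed, each with a positive r. The 7 genes other than S100b made 21 pairs, all with a positive r between 0.39 and 0.84, and all 16 pairs that passed were among them. Within Nic 14 were positive and 7 negative, namely all 6 pairs of Aldh1l1, with an r from -0.48 to -0.097, and the pair of Slc1a2 and Aldoc (-0.25). Within Con-Pf and within Con all 21 had a positive r. Differences between the groups in r were not tested. Without Con 3 and Con 5 these 21 pairs had an r between 0.41 and 0.79, and 20 of them passed. As background, over all pairs of the 9606 probe sets kept with 1 symbol, the median r was 0.061 and 11.8% of pairs had an r at or above 0.48, the smallest that passed among the members. Without the 2 arrays the median was 0.078, and 10.5% of pairs had an r at or above 0.45, the smallest that passed among the members there. Points of a pair come from the same arrays and share their RNA and normalization. Members also varied with the first principal component of all probe sets kept. With group means subtracted, r was -0.92 for Slc1a3, -0.81 for Slc1a2, -0.80 for Aqp4 and Aldh1l1 and -0.57 for Gfap. It was -0.45 for Gja1, -0.27 for Aldoc and 0.53 for S100b. Without Con 3 and Con 5 it lay between -0.86 (Slc1a3) and -0.24 (S100b). The part of this component in the pairs was not tested.

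Over all 25 arrays the glutamate transporters had the highest Pearson's r of the pairs. Slc1a2 and Slc1a3 had an r of 0.84 and a rho of 0.72 (permutation p = 1e-05 for r, the smallest that the permutations can give, adjusted 0.00014). Without the 2 arrays farthest from the median of the first gene r was 0.76, and without Con 3 and Con 5 it was 0.62, lower than that of several other pairs. Within Nic r was 0.43, within Con-Pf 0.74 and within Con 0.91. Gja1 and Aldoc, a junction gene and a glycolytic gene, had an r of 0.78 and a rho of 0.79 (permutation p = 1e-05, adjusted 0.00014), and this pair had the highest r without Con 3 and Con 5, 0.79. Gfap and Aqp4 had an r of 0.78 and a rho of 0.70 (permutation p adjusted 0.000187), and 0.68 without the farthest 2 arrays.

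S100b had no pair that passed with all arrays. Over the 25 arrays its r was between -0.45 (with Slc1a2) and 0.26 (with Gja1), and 0 of its 7 pairs passed. On the 23 arrays without Con 3 and Con 5 its r was between 0.19 and 0.61, and 2 pairs passed, those with Gfap (0.59, adjusted permutation p = 0.0128) and with Gja1 (0.61, adjusted permutation p = 0.00664), whereas the adjusted permutation p of the other 5 lay between 0.108 and 0.398. Its r with Slc1a3 was -0.44 over 25 arrays and 0.28 over the 23.

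**Figure D3:**
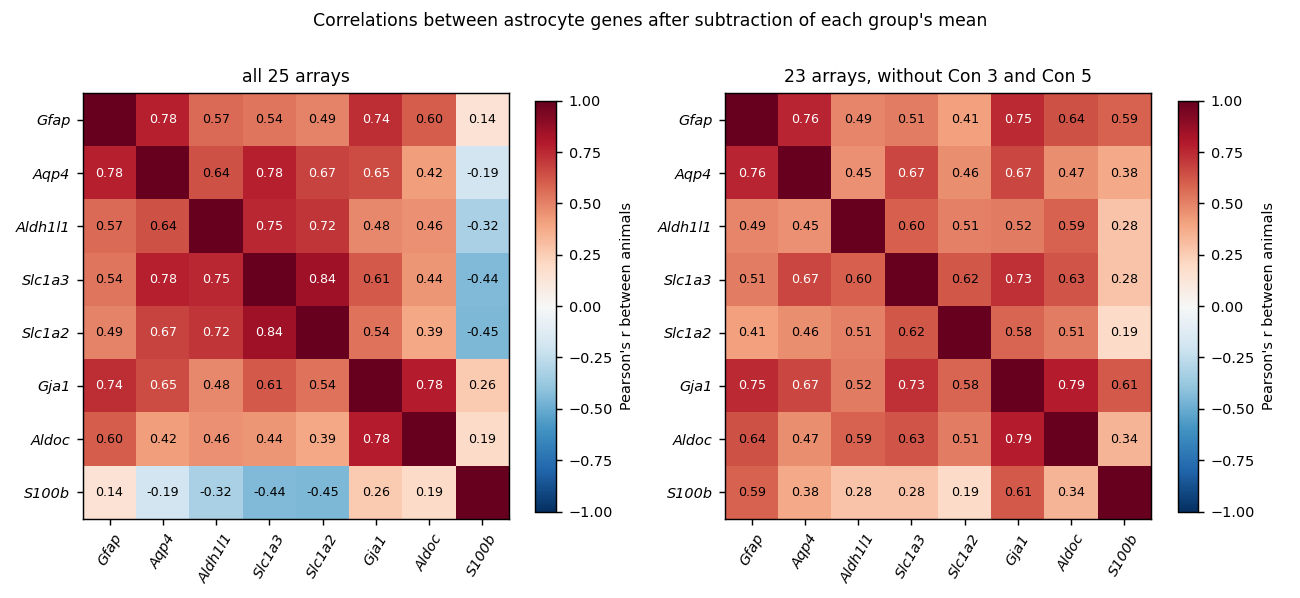
Pearson's r between the levels of 2 astrocyte genes over animals, after subtraction of each group's mean, for all 25 arrays (left) and for 23 arrays (right). Colour and number give r, and the bottom row, S100b, is negative with 4 genes on the left and with none on the right.

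**Figure D4:**
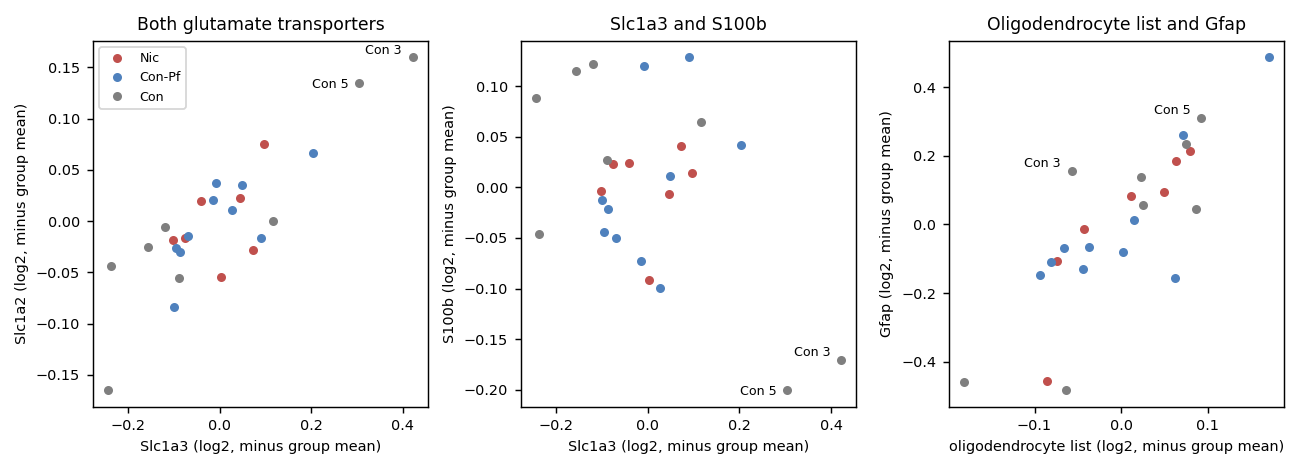
Levels minus the group mean (log2, both axes) for Slc1a3 against Slc1a2, Slc1a3 against S100b, and the oligodendrocyte list against Gfap, with 1 point per animal coloured by group. Con 3 and Con 5 extend the first relation (r = 0.84 with them, 0.62 without) and set the sign of the second, and they lie within the third.

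The members were also set against lists of markers, in 104 relations of 8 genes with 13 lists. Of these 18 passed (permutation test of Pearson's r within groups, Benjamini-Hochberg over 104). With lists of other astrocyte genes, which were 5 of the 13, there were 14 of the 18. The glutamate list and the metabolism list each passed with 5 of 8 members. The water, filament, oligodendrocyte and endothelial lists each passed with 2 of 8, and the astrocyte transcription factor and receptor list with 0 of 8. No share over other probe sets was computed. The highest r of Gfap was with the astrocyte metabolism and lipid list (r = 0.83, rho = 0.78, adjusted permutation p = 0.00104). Gfap varied to a like degree with the oligodendrocyte list, the genes of myelin-forming cells. That r was 0.81, with a rho of 0.80 (adjusted permutation p = 0.00104). Its r was 0.69 without the 2 arrays farthest on the list and 0.85 without Con 3 and Con 5, and it was 0.88 within Nic, 0.82 within Con-Pf and 0.79 within Con. Con-Pf 1, the array highest for Gfap, was also the highest for this list, with a mean level 0.19 above the mean over all arrays. Of the 3 arrays lowest for Gfap (Nic 7, Con 4 and Con 7), Con 7 was the lowest for the list, at -0.20, and Con 4 and Nic 7 stood at -0.086 and -0.095. Aqp4 had an r of 0.62 and a rho of 0.65 with the same list (adjusted permutation p = 0.0181), whereas Slc1a2 had an r of 0.099 (adjusted permutation p = 0.694). The difference between these correlations was not tested. Between groups the oligodendrocyte list overlapped throughout, from -0.095 to 0.071 in Nic, from -0.070 to 0.19 in Con-Pf and from -0.20 to 0.071 in Con. In each comparison 0 of its 10 tested genes were called. Of all probe sets 1.26% were called in Con-Pf minus Con, 0.185% in Nic minus Con-Pf and 0.00% in Nic minus Con.

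Of other cell types, endothelial markers passed with Aldh1l1 (r = 0.56, rho = 0.45, adjusted permutation p = 0.0382) and with Slc1a3 (r = 0.56, rho = 0.58, adjusted permutation p = 0.0481). Both genes had a higher r with the astrocyte glutamate, GABA and glutamine list, 0.82 for Aldh1l1 and 0.80 for Slc1a3. The r values with the endothelial list were 0.45 and 0.52 without Con 3 and Con 5. These 2 arrays had endothelial list levels of 0.10 and 0.16, in the upper part of a Con range from -0.099 to 0.16. Con-Pf arrays ran from -0.11 to 0.080 and Nic arrays from -0.13 to 0.095. All 8 endothelial genes tested had a lower mean in Con-Pf than in Con, where 44.2% of all probe sets were lower. Among them 1 was lower at an unadjusted p under 0.05 (7.76% of all probe sets) and 0 were called (1.26% of all probe sets). Of the 8, 7 were lower without Con 3 and Con 5. Con 3 and Con 5 also had the lowest choroid plexus and ependyma levels (-0.67 and -0.70), with a Con range up to 1.26 and a Con-Pf range from -0.47 to 1.72. They had the lowest microglia levels too (-0.15 and -0.24). On other lists Con 3 and Con 5 parted, at -0.12 and 0.099 for oligodendrocyte precursors and -0.079 and 0.071 for oligodendrocytes. For cortical and thalamic neurons they stood at -0.38 and 1.22. The part of any of these in the differences of the astrocyte genes was not tested.

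Outside the members, the genes most like each one were listed from 9598 probe sets, as a description. Gfap was most like Ndrg1 (r = 0.89, and 0.88 without Con 3 and Con 5) and Ncoa4 (0.86). Aqp4 was most like Pgbd5 and Plpp3 (0.87 each), Aldh1l1 like Prickle2 (0.86) and Cyfip2 (0.85), and Gja1 like Slain2 (0.82) and Necap2 (0.81). Slc1a2 was most like Clock (0.89, and 0.78 without the 2 arrays) and Itpr1 (0.88), Slc1a3 like Dcaf5 and Slc2a13 (0.94 each, and 0.87 each without), and S100b like Ftl1 (0.83) and Pdk2 (0.82), which came to 0.61 and 0.62 without. Aldoc was most like Adhfe1 and Dedd (0.80 each). The mean of the members' standardised values was most like Abhd4 (0.91), Gna13 (0.89), D2hgdh (0.88), Pamr1 (0.87) and Suclg2 (0.86). The order depended on Con 3 and Con 5: without them Ndrg1 was still the most like Gfap, whereas Pgbd5 and Plpp3 were at ranks 19 and 13 for Aqp4, Prickle2 and Cyfip2 at ranks 9 and 11 for Aldh1l1, and Ftl1 and Pdk2 at ranks 41 and 32 for S100b. These values are the highest of many and are therefore high in part by selection.

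Other genes of astrocytes were grouped in 5 lists with 74 genes, of which 57 were tested. In Con-Pf minus Con 2 were called higher, both of the metabolism and lipid list, and 0 lower with limma. Of all probe sets 1.00% were called higher and 0.260% lower. An unadjusted p under 0.05 was reached by 19 of 57 (33.3%), against 22.0% of all probe sets. Without Con 3 and Con 5, 0 of the 57 were called, where 85 of 14607 probe sets were. An unadjusted p under 0.05 was then reached by 9 of 57 (15.8%), against 8.10% of all probe sets. Slc16a1, which encodes the lactate carrier MCT1 that is also abundant in endothelium, had levels of 10.18, 10.36 and 10.43 in Con-Pf and of 9.99, 10.19 and 10.29 in Con. The groups overlapped, with most Con-Pf arrays above the Con median. Its difference was 0.18 (standard error 0.043, limma adjusted p = 0.0288). Fabp7, a fatty acid binding protein of radial glia and astrocytes, had levels of 10.46, 10.72 and 10.83 in Con-Pf and of 10.08, 10.46 and 10.68 in Con, also overlapping. Its difference was 0.29 (standard error 0.073, limma adjusted p = 0.0451).

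Neither call was stable. Without Con 3 and Con 5 the difference was 0.17 for Slc16a1 and 0.19 for Fabp7, with limma adjusted p-values of 0.126 and 0.333. Of 25 fits that each left out 1 array, Slc16a1 was called in 21 and Fabp7 in 9, and leaving out Con 3 alone ended both calls (limma adjusted p = 0.0790 for Slc16a1 and 0.120 for Fabp7). With the methods' t-test and Benjamini-Hochberg adjustment neither was called, at 0.106 and 0.253.

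By function, 0 of the 10 tested genes of glutamate, GABA and glutamine handling were called in Con-Pf minus Con, where 1.26% of all probe sets were called. A negative difference was seen for 9 of the 10, against 44.2% of all probe sets, such as the glutamine transporter Slc38a3 (-0.13, limma adjusted p = 0.118). Con 5 had the highest level of this list (0.21) and Con 3 (0.087) was also high, and without both 6 of the 10 were negative. Of 8 genes of water, ion and junction proteins 0 were called. Slc4a4, a bicarbonate transporter, was at -0.15 (limma adjusted p = 0.134) and Fxyd1, a regulator of the sodium pump, at 0.21 (limma adjusted p = 0.171). Of 9 filament and reactive genes 0 were called. Among them Fkbp5, a glucocorticoid-induced chaperone partner, was at -0.21 (limma adjusted p = 0.0658), the protease inhibitor gene Timp1 at 0.19 and the filament gene Synm at -0.14. Of 14 transcription factors and receptors 0 were called, with Id3, an inhibitor of DNA binding, at 0.30 (limma adjusted p = 0.0534) and Sox2, a stem cell and glial factor, at 0.12. In the metabolism list the lactate dehydrogenase gene Ldhb was at 0.13 and the glucose transporter gene Slc2a1, which endothelium also makes, at -0.18. An unadjusted p under 0.05 was reached by 2 of 8 water genes and 3 of 9 filament genes. It was reached by 4 of 14 transcription factors and receptors and by 9 of 16 metabolism genes. Without Con 3 and Con 5 these counts were 0, 2, 2 and 3, and that of the glutamate list went from 1 to 2. The share of all probe sets was 22.0% with all arrays and 8.10% without the 2.

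In Nic minus Con-Pf 0 of 57 were called with limma (0.185% of all probe sets) and 3 (5.26%) had an unadjusted p under 0.05, against 4.36% of all probe sets. They were Slc7a11, the cystine and glutamate exchanger, at 0.15 (limma adjusted p = 0.328), Slc16a1 at -0.12 (limma adjusted p = 0.874) and the Notch target Hes5 at -0.14 (limma adjusted p = 0.999). In Nic minus Con 0 were called and 8 (14.0%) had an unadjusted p under 0.05, against 16.2% of all probe sets. Fabp7 was at 0.28 and Timp1 at 0.23 there (limma adjusted p = 0.268 for both), and the acyl-CoA synthetase gene Acsl6 at -0.19 and the proline dehydrogenase gene Prodh at -0.18. The medians of the 57 genes were -0.0066 in Nic minus Con-Pf, -0.025 in Nic minus Con and -0.021 in Con-Pf minus Con. Without Con 3 and Con 5 the medians of Nic minus Con and Con-Pf minus Con were -0.0083 and 0.0039.

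**Figure D5:**
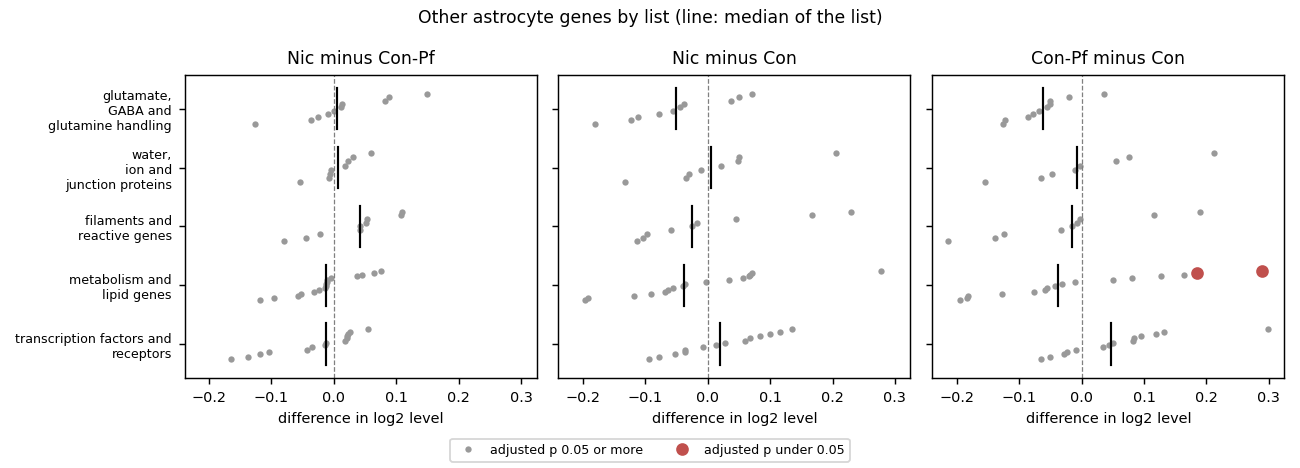
Difference in log2 level (horizontal axis) of 57 further astrocyte genes in 5 lists (vertical axis) for 3 comparisons. Points are genes, black lines are list medians, and the 2 large red points are Slc16a1 (0.18) and Fabp7 (0.29), the only genes with a limma adjusted p under 0.05, in Con-Pf minus Con.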

How the data were processed

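The authors deposited log2 values, 1 per probe set and array, made with RMA, which corrects the background, quantile normalises the arrays and summarises the probes of a set. Affymetrix Expression Console 1.1 is also listed in the submitters' processing notes. The 25 arrays remained after the authors had removed 2 Con arrays and 1 Nic array. Groups were taken from the titles, which give 10 Con-Pf and 8 Con arrays, whereas the methods' statistics section counts 8 Con-Pf and 10 Con.

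Probe sets whose mean reached the 0.5 quantile of all means were kept, and symbols came from the platform annotation (15310 probe sets with 1 symbol, 323 with several and 13581 with none). For differences limma 3.58.1 was used in R 4.3.3, in 1 model over 3 groups, with Benjamini-Hochberg adjustment over 14607 probe sets (threshold 0.05). The steps were tested on simulated data. Correlations were computed with Python 3.11.15 and numpy 2.4.6, with list levels as the mean over genes of the level minus its mean over arrays, and figures were drawn with matplotlib 3.10.9. Upstream windows came from RefSeq (GRCr8), with all 9 genes matched.

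The members and lists were chosen with earlier results of these data known. Genes named are all members, list genes called or among the 4 of a list with the smallest p, and the 2 genes most like each member (5 for their mean). The alternatives were a Welch t-test, other limma settings, filters and scalings, the placing of Con-Pf 9 and 10, a replicate block and leaving out arrays. Lists and spread without Con 3 and Con 5 were added after the data were seen. Probe-level background was not analysed here, and the number of arrays limits the precision.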

Additional observations from a re-analysis of the deposited data

Results flagged for a closer look

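In 4 of the 24 combinations of a member and a group, 1 animal lay far from the others of its group by Dixon's test, which chance alone does in about 1 of 20 groups. The arrays were Nic 5 for Aldh1l1 (8.27) and Con-Pf 8 for Aldh1l1 (8.36), both above the rest of their groups, Nic 6 for Aldoc (12.99), above the rest, and Nic 7 for S100b (11.81), below the rest.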

How the results depend on the processing

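The count of members called was 0 in every comparison under every alternative run. In Con-Pf minus Con 184 probe sets were called in total. This count was 66 with the Welch t-test, 99 with limma on the 2 groups only and 96 with no filter. It was 116 with Con-Pf 9 and 10 left out, 27 with them placed in Con, and 85 without Con 3 and Con 5. It ran from 104 (without Con 3) to 480 (without Con 7) when 1 array was left out. In Nic minus Con-Pf, 27, it was 6 with the t-test, 55 with array weights, 14 with a stricter filter, 5 where Con-Pf 9 and 10 were counted as Con, and 18 to 35 with 1 array left out. Of 21 same-numbered pairs of arrays 10 had deviations correlated above 0.1 (median r 0.052), against 33 of 126 differently numbered pairs (median -0.019). No label ties the numbers, so they were not taken to pair animals. The correlations cannot decide this, since a shared day or litter need not raise every pair. By the methods, extraction was balanced over the groups within each day, but the days are not given in the files used here. A replicate block over replicates 1 to 7 gave 14 calls, and the same arrays without it 17.

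Signs of small differences turned. In Nic minus Con-Pf the block and the same arrays without it gave 0.015 for Aldh1l1, 0.00083 for Aldoc, 0.011 for Aqp4 and 0.00041 for Gja1, and array weights gave 0.014 for Aldh1l1 and 0.0076 for Aqp4. In Nic minus Con array weights, a further quantile normalization and centring gave -0.0035, -0.012 and -0.014 for Aldoc, -0.014, -0.013 and -0.015 for Gja1, and -0.023, -0.0018 and -0.00039 for S100b. Without Con 3 and Con 5 S100b was at -0.033 and Slc1a3 at 0.0047. In Con-Pf minus Con centring gave -0.0035 for Aldoc and array weights -0.0042 for Gja1. With 1 array left out, Nic minus Con-Pf ran from -0.014 to 0.017 for Aldh1l1, from -0.021 to 0.0053 for Aldoc, from -0.044 to 0.024 for Aqp4 and from -0.030 to 0.0088 for Gja1, and Nic minus Con from -0.0017 to 0.025 for Aldoc, from -0.0077 to 0.032 for Gja1 and from -0.00014 to 0.046 for S100b. The correlations of S100b turned positive without Con 3 and Con 5, at 0.38 with Aqp4, 0.28 with Aldh1l1, 0.19 with Slc1a2 and 0.28 with Slc1a3, and the last was also 0.28 without its farthest 2 arrays, which are the same. The cause of these turns was not tested. Of 28 pairs 15 passed without the farthest 2 arrays and 21 with arrays centred, against 16. The mean over a gene's probe sets was not run, since each member has 1.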
